A study of Homo sapiens with 3 samples.

Results

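Genes that encode the enzymes of ubiquitin conjugation and removal were examined for peaks of VCP chromatin in HCT116 cells. The genes were chosen by symbol alone, as protein-coding RefSeq genes named UBE2 plus a letter (E2 conjugating enzymes), RNF plus a number (RING ligases), or USP plus a number with an optional final X or Y (ubiquitin-specific proteases), and 171 of 19866 protein-coding genes met this rule. They were 36 E2 genes, 84 RING ligase genes and 51 USP genes. HCT116 is a human colorectal cancer cell line, and per the series' design text the cells overexpressed Flag-tagged VCP. The VCP antibody gave 1 chromatin immunoprecipitation library, the Flag antibody gave 1, and 1 input library was made from the same kind of cells. All cells were fixed in formaldehyde and their chromatin was cut with micrococcal nuclease. A line without the tagged protein was not analysed here, and neither were the reads of the input. Peak lists hold no expression values, so the cell line was not checked against marker genes.

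Ubiquitin is attached to proteins by a relay, in which an E1 enzyme activates it, an E2 enzyme carries it on a cysteine, and an E3 ligase brings the loaded E2 to its substrate. Most RING ligases hold the E2 and the substrate together without binding ubiquitin covalently, while those of the RING-between-RING group take it on a cysteine first, and USP enzymes cut ubiquitin off again. VCP, also called p97, is an ATPase that pulls ubiquitin-tagged proteins out of membranes, complexes and chromatin, so the enzymes encoded by these genes make and erase the mark that VCP acts on.

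With 1 library per antibody there was no replicate check, and every comparison below is a description of the lists with no test. There were 1816 peaks for the VCP antibody and 5719 for Flag. A gene was counted when the summit of a peak lay within 1 kb of either outer end of the gene. Fold enrichment is the authors' ratio of summit reads to local background reads, each with 1 read added. The reads behind each value were recovered from the fold enrichment and the p-value, and their intervals are exact Poisson 95% intervals that cover counting error only. Most peaks were small. The median summit held 10 reads for VCP and 11 for Flag, and 6.50% of VCP peaks and 33.8% of Flag peaks had a q of at most 0.05. The lowest local background was 1.74 reads for VCP and 1.85 for Flag.

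The promoter windows of 6 genes are shown because their summits, described below, lie in or next to these bases. Each runs from 250 bases before to 50 bases after the RefSeq start, 5′ to 3′ on the strand of the gene (GRCh38.p14, which is hg38), and the start is the first of the last 50 bases. Capitals mark any of 8 letter strings on either strand: CCGGAA (ETS core), GCGCATG (part of the NRF1 motif), AAGATGG (YY1), GGGCGG (GC box), CCAAT (a box named by its letters), TGACGTC (most of a cyclic AMP response element), CACGTG (E-box) and TATAAA (the core promoter box). The first 3 are the genes with a VCP summit for which a promoter window could be read.
RNF130, chr5:180071710-180072009, minus strand: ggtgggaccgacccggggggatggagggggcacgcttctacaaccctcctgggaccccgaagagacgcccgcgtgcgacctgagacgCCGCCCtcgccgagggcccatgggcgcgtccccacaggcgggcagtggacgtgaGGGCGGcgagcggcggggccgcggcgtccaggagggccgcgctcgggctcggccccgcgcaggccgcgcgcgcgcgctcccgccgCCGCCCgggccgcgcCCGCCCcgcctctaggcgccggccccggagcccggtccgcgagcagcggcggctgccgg
RNF20, chr9:101533603-101533902, plus strand: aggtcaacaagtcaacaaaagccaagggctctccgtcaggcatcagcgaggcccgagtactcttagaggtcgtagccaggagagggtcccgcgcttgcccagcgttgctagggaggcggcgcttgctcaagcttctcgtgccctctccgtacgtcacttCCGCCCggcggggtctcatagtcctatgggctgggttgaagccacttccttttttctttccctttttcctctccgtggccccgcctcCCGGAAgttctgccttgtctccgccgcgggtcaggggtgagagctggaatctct
RNF7, chr3:141738048-141738347, plus strand: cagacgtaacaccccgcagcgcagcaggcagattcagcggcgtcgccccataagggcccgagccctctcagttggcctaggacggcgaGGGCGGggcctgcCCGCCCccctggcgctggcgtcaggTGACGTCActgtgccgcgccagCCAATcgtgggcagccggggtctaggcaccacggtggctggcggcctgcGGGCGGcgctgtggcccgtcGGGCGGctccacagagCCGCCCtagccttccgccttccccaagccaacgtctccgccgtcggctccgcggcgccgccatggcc
The other 3 are at USP and E2 genes with a Flag peak at a q of at most 0.05.
USP15, chr12:62260154-62260453, plus strand: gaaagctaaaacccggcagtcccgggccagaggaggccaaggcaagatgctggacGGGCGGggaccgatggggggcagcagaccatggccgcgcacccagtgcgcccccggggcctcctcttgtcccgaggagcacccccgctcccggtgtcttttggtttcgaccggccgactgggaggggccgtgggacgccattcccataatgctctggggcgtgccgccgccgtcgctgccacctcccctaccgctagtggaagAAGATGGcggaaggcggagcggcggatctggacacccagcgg
UBE2A, chrX:119574313-119574612, plus strand: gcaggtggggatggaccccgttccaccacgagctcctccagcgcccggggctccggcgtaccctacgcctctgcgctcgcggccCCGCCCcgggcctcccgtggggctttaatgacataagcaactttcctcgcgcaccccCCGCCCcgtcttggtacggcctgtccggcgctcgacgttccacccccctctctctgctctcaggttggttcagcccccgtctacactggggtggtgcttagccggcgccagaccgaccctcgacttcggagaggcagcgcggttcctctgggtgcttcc
UBE2S, chr19:55407739-55408038, minus strand: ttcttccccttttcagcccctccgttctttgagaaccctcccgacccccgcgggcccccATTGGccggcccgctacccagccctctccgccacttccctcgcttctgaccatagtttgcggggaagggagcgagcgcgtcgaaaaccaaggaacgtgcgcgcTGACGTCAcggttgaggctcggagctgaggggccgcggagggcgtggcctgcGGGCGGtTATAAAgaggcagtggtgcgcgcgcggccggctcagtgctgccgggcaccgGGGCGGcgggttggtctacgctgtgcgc

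The family with the highest share differed between the lists. In the Flag list 33 of the 171 genes had a summit at an end (19.3%), beside 11.7% of all protein-coding genes. USP genes and E2 genes had the higher shares, with 14 of 51 USP genes (27.5%) and 9 of 36 E2 genes (25%), whereas RING ligase genes stood at 10 of 84 (11.9%), next to the level of all genes. In the VCP list 7 of the 171 genes had a summit at an end (4.09%), beside 2.34% of all protein-coding genes. Here 5 of the 84 RING ligase genes were listed (5.95%), against 1 of 36 E2 genes (2.78%) and 1 of 51 USP genes (1.96%). These VCP counts are small, and the E2 and USP shares, each from 1 gene, were near that of all genes and give no order between them. Both lists marked 3 genes (1.75%, beside 0.987% of all protein-coding genes), and all 3 encode RING ligases. These 3 were 42.9% of the VCP-listed members and 9.09% of the Flag-listed ones, next to 42.2% and 8.40% among all protein-coding genes. The comparison set includes genes that are silent in these cells, and expression was not measured, so its part in these shares was not tested.

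**Figure D1:**
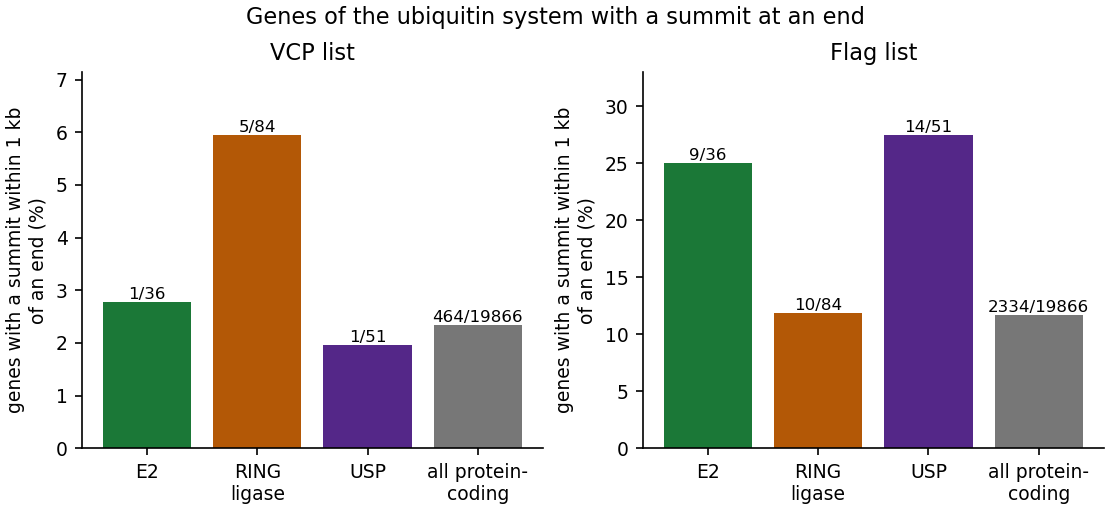
Share of genes with a summit within 1 kb of an end (%, vertical axis, different scales) in the VCP list and the Flag list, for E2, RING ligase and USP genes and, last, all protein-coding genes; the numbers on the bars are genes with a summit over genes in the set. USP and E2 genes stand highest in the Flag list at 27.5% and 25%, and RING ligase genes highest in the VCP list at 5.95%.

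The Flag peaks themselves were of ordinary size, while the few VCP peaks had somewhat higher values than usual. Over the 33 Flag-listed members the median fold enrichment was 3.62 (range 2.64 to 7.73) with 12 reads at the summit, beside 3.70 and 12 reads over all 2334 protein-coding genes with a Flag summit. By family the Flag medians were 3.51 for E2, 3.71 for RING ligase and 3.74 for USP genes. A q of at most 0.05 was found at 3 of 9 E2, 3 of 10 RING ligase and 8 of 14 USP genes. Together these were 14 of 33 members (42.4%), beside 47.0% of all genes with a Flag summit. Over the 7 VCP-listed members the median fold enrichment was 4.14 (range 2.59 to 4.85) with 11 reads, beside 3.59 and 10 reads over 464 protein-coding genes. Their median -log10 q was 1.13, beside 0.389 over those 464 genes. By family the VCP median fold enrichment was 4.38 for the 5 RING ligase genes, with 2.59 and 2.92 at the 1 E2 and 1 USP gene. Because a summit holds few whole reads, values come in steps. Thus 5 members shared 1 Flag value of 9 reads and a fold enrichment of 3.51, and 4 more shared 10 reads and 3.86.

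RNF130 was the one member whose VCP and Flag peaks overlapped at a gene end. It encodes a membrane-anchored RING ligase of the protease-associated domain group, related to the fly protein goliath. Its VCP peak ran from 180071916 to 180072383 on chromosome 5, with 11 reads at the summit (95% interval 5.49 to 19.7), a fold enrichment of 4.38 and -log10 q of 1.13. Its Flag peak ran from 180072063 to 180072414, with 21 reads (13.0 to 32.1), a fold enrichment of 7.73 and -log10 q of 10.1. The Flag value was the highest of any member and ranked 28 among the 5719 Flag peaks, while the VCP value ranked 133 among 1816 by q, tied with RNF7. The summits lay 241 bp apart and both upstream of the start, by 270 bp for VCP and by 511 bp for Flag, beyond the first of the bases printed above. Those 300 bases were 82.3% G or C and held 4 matches of the GC box.

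At RNF139 and RNF20 both lists had summits close together, but the peaks did not overlap. RNF139, also called TRC8, is a ligase of the endoplasmic reticulum membrane that takes part in the disposal of proteins through VCP. Its VCP peak on chromosome 8 (124474310 to 124474517) had 14 reads (7.65 to 23.5), a fold enrichment of 4.85 and -log10 q of 2.34, the highest of the 7 VCP-listed members and rank 35 of 1816. The gene had a pair of Flag peaks, at 124474783 to 124475005 with 14 reads (7.65 to 23.5) over a background of 4.08 reads and a fold enrichment of 2.95, and at 124475560 to 124475748 with 12 reads (6.20 to 21.0) over 2.0 reads and 4.33. The VCP summit lay 508 bp outside the gene, and the Flag summits 25 and 750 bp inside it, so that the nearest pair of summits was 533 bp apart. The end of the non-coding gene RNF139-DT lay within 1 kb of the VCP summit and of the first Flag summit.

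RNF20 encodes a ligase that, with RNF40, attaches a single ubiquitin to histone H2B. Its VCP peak on chromosome 9 (101533544 to 101533779) had 10 reads (4.80 to 18.4), a fold enrichment of 4.01 and -log10 q of 0.697. Its Flag peak (101533788 to 101534058) had 9 reads (4.12 to 17.1), 3.51 and 0.813. The peaks stood side by side, with the VCP summit 169 bp upstream of the start and the Flag summit 89 bp downstream. Neither reached a q of 0.05. The VCP summit also lay 2 bp from an end of PGAP4, a gene for an enzyme of membrane anchor synthesis, and was counted for that gene too, as was the Flag summit. In the window printed above, the ETS core CCGGAA lay across the start.

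**Figure D2:**
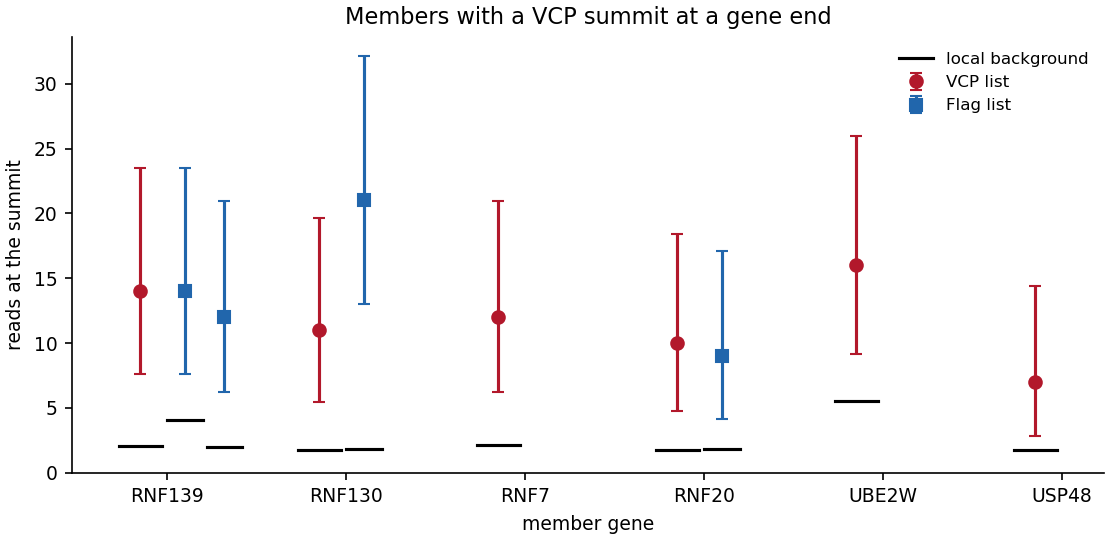
Reads at the summit (vertical axis) of 6 of the 7 members with a VCP summit at a gene end, ordered by -log10 q; red circles are the VCP list, blue squares the Flag list, bars exact Poisson 95% intervals and black lines the local background. RNF139, RNF130 and RNF20 have points of both lists, and the 21 Flag reads at RNF130 are the highest value shown.

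RNF7, UBE2W and USP48 had a VCP summit and no Flag summit nearby. RNF7 encodes RBX2, the RING subunit of cullin-5 ligases. Its VCP peak on chromosome 3 (141738287 to 141738484) held 12 reads (6.20 to 21.0) with a fold enrichment of 4.14, and its summit lay 14 bp inside the start, within the bases shown. The nearest Flag summit was 369917 bp away. UBE2W, which encodes the E2 enzyme that places ubiquitin on the amino end of proteins, had the most reads of the 7, 16 (9.15 to 26.0), but over the highest background, 5.57 reads, which left the lowest fold enrichment, 2.59. USP48, a nuclear deubiquitinase gene, had 7 reads (2.81 to 14.4) and a fold enrichment of 2.92, with -log10 q of 0.0545. Apart from RNF139, no VCP-listed member reached a q of 0.05 (1 of 7, beside 54 of the 464 protein-coding genes with a VCP summit).

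Among the 9 E2 genes with a Flag summit were genes for enzymes of chromatin and mitosis. UBE2A on chromosome X (119574226 to 119574621) had 12 reads (6.20 to 21.0) over the lowest background, a fold enrichment of 4.57 and -log10 q of 2.51. Its protein, a human counterpart of yeast Rad6, works with RNF20 on histone H2B. UBE2B, which encodes the near twin of UBE2A, had a pair of Flag peaks just outside the gene, with 10 reads (4.80 to 18.4) and a fold enrichment of 3.86 at the stronger. UBE2S, whose protein extends ubiquitin chains for the anaphase-promoting complex, had 15 reads (8.40 to 24.7), a fold enrichment of 4.22 and -log10 q of 2.71 on chromosome 19 (55407901 to 55408212). Fold enrichments lay between 2.67 and 3.51 at 5 further E2 genes with a Flag summit, UBE2L6, UBE2Q1, UBE2Q2, UBE2D4 and UBE2Z. None of the 9 had a VCP summit at an end, beside 8.40% of all protein-coding genes with a Flag summit. With 9 genes, 0 is near that share.

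RING ligase genes with a Flag summit were 10 of 84, near the share of all genes. After RNF130, the highest value was at RNF31, which encodes HOIP, the catalytic subunit of the complex that builds linear ubiquitin chains. Its Flag peak on chromosome 14 (24147509 to 24147721) had 14 reads (7.65 to 23.5), a fold enrichment of 5.27 and -log10 q of 3.90. RNF130, RNF31 and RNF139 reached a q of 0.05. RNF32, RNF34, RNF6, RNF20, RNF220, RNF25 and RNF126 did not, with fold enrichments between 2.67 and 3.86. A Flag summit was listed at 1 of the 8 genes of the RING-between-RING group (12.5%), RNF31, and at 1 of the 10 genes of the group of RNF130 (10%), RNF130 itself. Both shares were near the 11.7% of all protein-coding genes.

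USP genes held the largest number of Flag peaks past the q threshold. USP15, whose protein acts on receptors and SMADs of transforming growth factor signalling, had the strongest, with 27 reads (17.8 to 39.3) over a background of 3.63, a fold enrichment of 6.05 and -log10 q of 9.49, rank 33 of 5719. That peak ran from 62260122 to 62260355 on chromosome 12 and its summit lay 180 bp upstream of the start, inside the window shown. USP3, a deubiquitinase of histone H2A, followed with 19 reads (11.4 to 29.7), 4.76 and -log10 q of 4.53, its summit 99 bp upstream of the start. USP5, which takes apart free ubiquitin chains, had 17 reads (9.90 to 27.2), 4.84 and 4.10. USP40 had 15 reads (8.40 to 24.7), 4.32 and 2.86. USP16, another deubiquitinase of H2A, had 14 reads (7.65 to 23.5), 4.14 and 2.41, with its summit 47 bp inside the start. USP9X, USP47 and USP13 had fold enrichments of 4.21, 3.62 and 3.59 and -log10 q of 1.87, 1.54 and 1.68. Below the threshold were USP19, USP31, USP4, USP21, USP39 and USP36, with fold enrichments between 2.64 and 3.86. USP39 encodes a splicing factor that lacks protease activity. The nearest VCP summit to any of these 14 Flag summits, at USP21, was 11272 bp away. So 0 of the 14 genes were in both lists, beside 8.40% of all protein-coding genes with a Flag summit. With 14 genes, 0 is near that share.

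**Figure D3:**
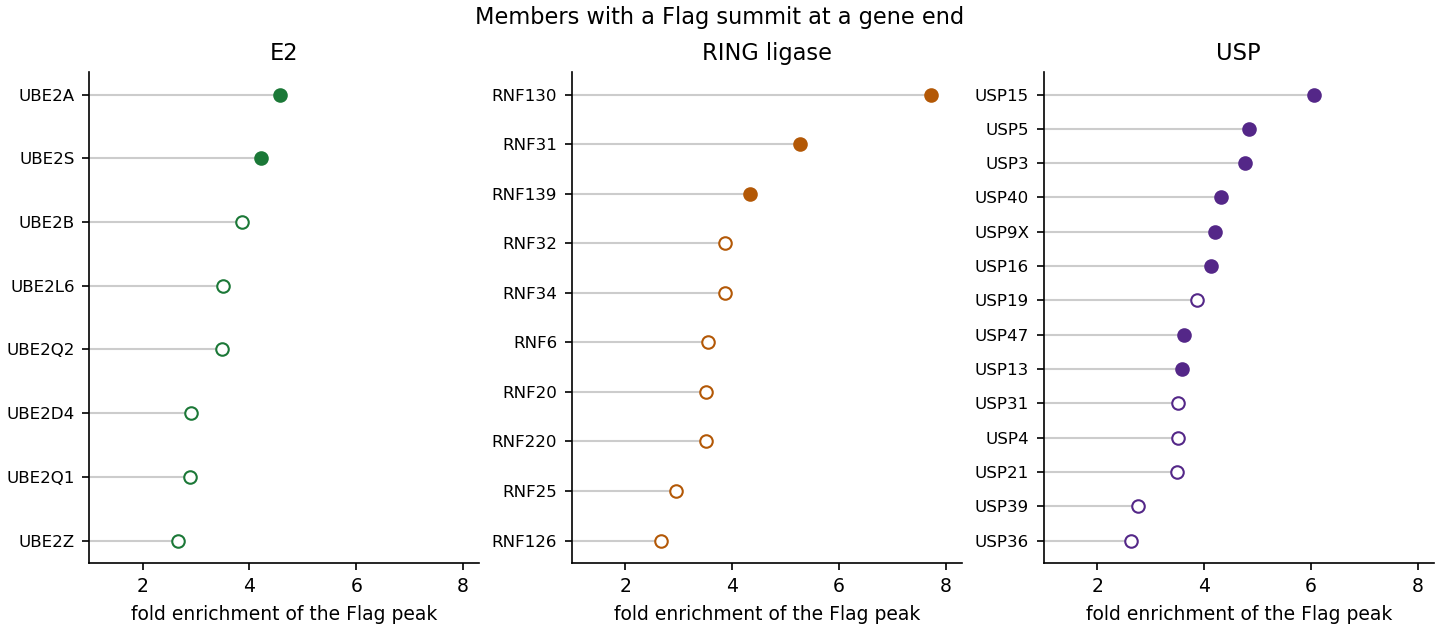
Fold enrichment (horizontal axis) of the strongest Flag peak at an end of 32 of the 33 members with one, in panels by family; filled circles have a q of at most 0.05. Filled circles number 2 of 8 E2, 3 of 10 RING ligase and 8 of 14 USP genes, and RNF130 at 7.73 and USP15 at 6.05 lie farthest right.

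Nearly all summits with a known strand lay at a transcript start. A strand could be read from the promoter table for 27 of the 35 pairs of a Flag peak and a member, and 26 of them lay at the start, beside 93.5% of such pairs over all protein-coding genes. The exception was USP21, whose summit lay 434 bp beyond its far end and 429 bp from an end of its neighbour PPOX, a haem synthesis gene. All 3 VCP pairs with a known strand lay at the start, beside 89.5% over all genes. The side of the gene end on which Flag summits fell was counted by family. Of 11 RING ligase summits 8 lay inside the gene, at a median of 511 bp from the outer end. Of the 10 E2 summits 3 lay inside, with a median of 241 bp, and of the 14 USP summits 5, with a median of 174 bp. Over all protein-coding genes 42.0% of such pairs had the summit inside, and the median was 193 bp. These family counts are small and were not tested against each other. Measured from the nearest start in the promoter table instead, the RING ligase median was 122 bp (9 pairs), the E2 median 198 bp (6 pairs) and the USP median 174 bp (12 pairs), beside 183 bp over all genes. At RNF6, RNF220, RNF32 and RNF31 an inner start lay 12, 37, 102 and 122 bp from the summit.

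**Figure D4:**
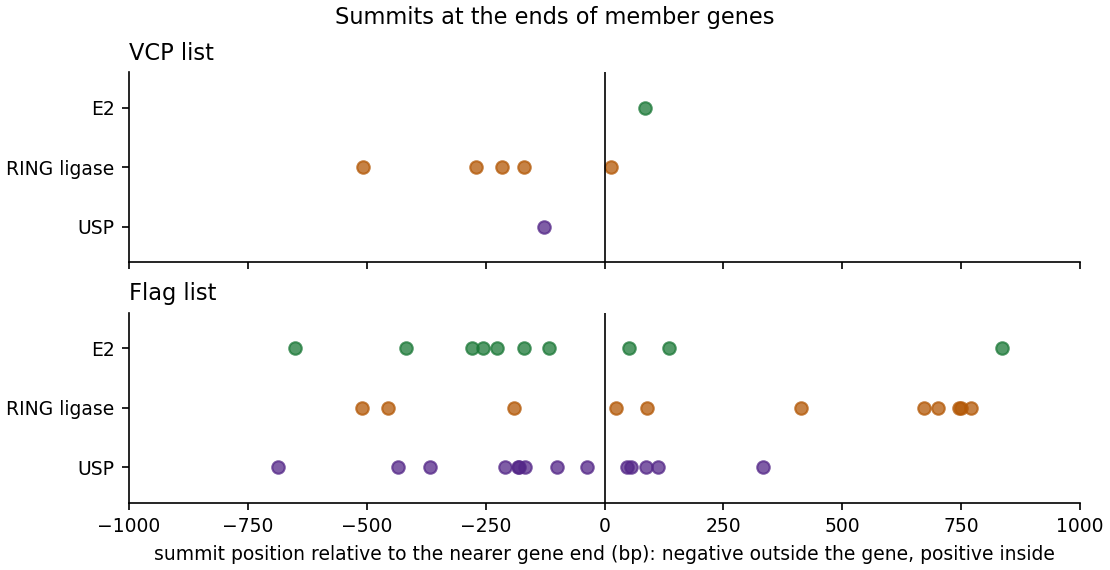
Position of each summit relative to the nearer outer end of its gene (bp, negative outside the gene and positive inside), by family, for the VCP list above and the Flag list below; each point is a pair of a peak and a member. In the Flag list 8 of 11 RING ligase points lie inside, against 3 of 10 E2 and 5 of 14 USP points.

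No VCP summit at a member lay near the 1 kb limit, while some Flag summits did. The outermost members inside it were RNF139 at 508 bp in the VCP list and UBE2Q2 at 836 bp in the Flag list. The first outside it were RNF213 at 6080 bp (VCP, fold enrichment 3.77) and USP34 at 1376 bp (Flag, 3.16). Some peaks served a neighbour too. Of the 33 Flag-listed members 9 shared their peak with another protein-coding gene, such as USP15 with TAFA2, USP19 with LAMB2 and UBE2B with CDKL3, beside 34.3% of all genes with a Flag summit. Of the 7 VCP-listed members only RNF20 did, beside 30.8%.

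The counts fell with stricter rules, and so did those of all genes. In this paragraph each percentage in brackets is the share of all protein-coding genes under the same rule, not the share of members. At a q of at most 0.05 the VCP list held 1 member (0.272% of all protein-coding genes), the Flag list 14 (5.53%) and both lists 1, RNF139 (0.111%). At -log10 q of at least 5 the VCP list held 0 members (0.00503%), the Flag list 2, RNF130 and USP15 (0.7%), and both lists 0 (0%). A window of 500 bp left 5 of the 84 RING ligase genes in the Flag list. That was a share of 5.95%, below the share of all genes (9.9%). The same window left RNF20 alone in both lists (0.775%), since RNF139 and RNF130 each had a summit a little farther out. Counting starts only, the VCP list held 3 of the 137 members with a strand, which is near the share of all genes with one (2.17%). The higher VCP share of members under the main rule was thus not seen with starts only. Counting summits anywhere in the gene, the VCP list held 11 of the 171 members (4.63% of all protein-coding genes), and both lists shared 6 (2.09%).

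Promoters of USP and E2 genes were richer in CpG than those of RING ligase genes. A promoter window was available for 137 of the 171 genes. For a gene with several starts in the promoter table, only the window nearest its outer end was used. A ratio of observed to expected CpG over 0.6, a usual mark of a CpG island, was found in 36 of 39 USP windows (92.3%), 26 of 28 E2 windows (92.9%) and 52 of 70 RING ligase windows (74.3%), beside 65.5% of all 15843 protein-coding windows. Among genes with such CpG-rich windows, a split chosen after the values were seen, a Flag summit was listed at 11 of 36 USP genes (30.6%), 6 of 26 E2 genes (23.1%) and 7 of 52 RING ligase genes (13.5%), beside 16.8% of all protein-coding genes. Among genes with a lower ratio a Flag summit was listed at 3 of 23 members (13%), beside 4.03% of all protein-coding genes. Of these members 2 were among 18 RING ligase genes (11.1%) and 1 among 3 USP genes, while 0 of 2 E2 genes had one. At RNF31, which was among them, the summit lay 745 bp from the start of the window used and 122 bp from an inner start. Within each family the median ratio was close with and without a Flag summit, at 0.927 and 0.879 for USP, 0.910 and 0.895 for E2, and 0.910 and 0.824 for RING ligase genes. The part of base composition in the Flag shares was not tested.

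**Figure D5:**
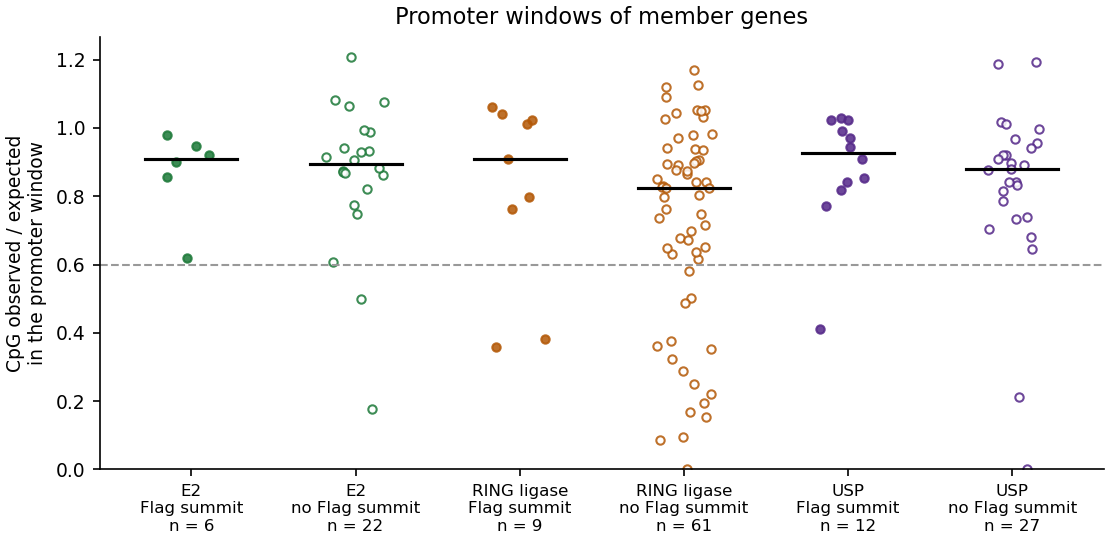
Ratio of observed to expected CpG (vertical axis) in the promoter window of each member, by family, with a Flag summit (filled) and without (open); black lines are medians and the dashed line marks 0.6. The RING ligase genes without a Flag summit hold most of the points below 0.6.

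The letter strings were read in the same windows on both strands, as a description. GGGCGG stood in 21 of the 27 windows of Flag-listed members (77.8%), in 73.4% of the 109 members in neither list and in 58.3% of all windows. CCGGAA stood in 8 of the 27 (29.6%), in 22% of the members in neither list and in 22.7% of all, while among all protein-coding genes with a Flag summit it stood in 34.4%. CCAAT stood in 6 of the 27 (22.2%), against 37.6% of members in neither list and 36.4% of all windows. CACGTG stood in 0 of the 27, against 4.59% and 8.82%, and TATAAA in 4 (UBE2S, RNF6, USP16 and USP40), against 5.5% and 9.75%. Over all protein-coding genes with a Flag summit the shares were 70.4% for GGGCGG, 36.5% for CCAAT, 11.8% for CACGTG and 6.22% for TATAAA. The low CCAAT and CACGTG shares of the Flag-listed members were thus not seen there. With 27 windows a few genes decide each share.

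Within gene bodies, more than 1 kb from either end, the VCP list had 4 summits in 4 members (2.34%, beside 2.35% of all protein-coding genes), and the Flag list had 12 summits in 11 members (6.43%, beside 6.75%). Both shares were near those of all genes. RNF135, whose ligase activates the RNA sensor RIG-I, held the one body peak that overlapped between the lists. Its VCP peak on chromosome 17 (30971088 to 30971421) had 13 reads (6.92 to 22.2), a fold enrichment of 5.03 and -log10 q of 2.34, and its Flag peak (30971066 to 30971505) had 12 reads (6.20 to 21.0), 3.98 and 1.83. The summits lay 12302 and 12388 bp from the nearer end. RNF43, a ligase gene whose protein removes WNT receptors from the cell surface, held a pair of Flag peaks with fold enrichments of 4.68 and 4.57. Of the 12 Flag summits in bodies 4 lay within 1 kb of a further RefSeq start, at RNF44, RNF220, USP39 and USP32. The other VCP body peaks lay in USP34, USP53 and RNF19A.

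Shares by role are set against 11.7% of all protein-coding genes for Flag and 2.34% for VCP. Among all members, from which these groups were drawn, the shares were 19.3% and 4.09%. Of 19 genes of chromatin ubiquitylation 6 had a Flag summit (31.6%), namely UBE2A, UBE2B, RNF20, USP3, USP16 and USP21, and 1 had a VCP summit (5.26%), RNF20. The genes for writers and erasers of histone marks RNF2, RNF8, RNF168, RNF40, USP7 and USP22 had none of either list. Of 12 genes of quality control in the endoplasmic reticulum 3 had a Flag summit (25%), namely RNF139, USP13 and USP19, and 1 a VCP summit (8.33%), RNF139. UBE2G2 and UBE2J1, which encode E2 enzymes of that pathway, had no summit of either list at an end. Of 6 E2 genes whose proteins carry other modifiers or lack the catalytic cysteine, 2 had a Flag summit (33.3%), among them UBE2L6, whose protein carries the interferon-induced modifier ISG15. Of 3 E2 genes of the cell cycle 1 had a Flag summit (33.3%), UBE2S. Of 7 genes of the UBE2D and UBE2E families, the widely shared partners of RING ligases, 1 had a Flag summit (14.3%), UBE2D4, which is near the share of all genes. No gene of the last 3 groups had a VCP summit. These groups overlap the families above and their counts are small.

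Other genes of the ubiquitin system gave the families a frame. E1 enzymes had a Flag summit at 2 of 9 genes, UBA2 and SAE1, which together encode the SUMO E1 (fold enrichments 2.81 and 3.51). HECT ligases, which also bind ubiquitin before passing it on, had 7 of 28 (25%), led by TRIP12 with a fold enrichment of 5.54. The core of cullin ligases had 6 of 16 (37.5%), led by CAND1, the exchange factor of these ligases, with 22 reads (13.8 to 33.3) and 6.81, and CUL2 with 5.54. Deubiquitinases outside the USP family had 6 of 35 (17.1%), led by TNFAIP3 with 4.04. TRIM genes, another large set of RING ligases, had 8 of 73 (11.0%), near the 11.7% of all protein-coding genes and the 11.9% of RNF genes. In the VCP list these sets held HERC3 (fold enrichment 2.87), ELOC (2.45) and, among the 4 ubiquitin genes, UBB (5.04), and 0 of 9 E1, 0 of 35 deubiquitinase and 0 of 73 TRIM genes. None of these related genes had summits of both lists.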

How the data were processed

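Chromatin immunoprecipitation sequencing gave 1 library per antibody (VCP, Flag) and 1 input. The submitters' processing notes name MACS2 2.1.0, Bowtie 1.1.2, Trimmomatic 0.33 and bcl2fastq 2.17 and the build hg38. Settings were not given in the sources used here. In the deposited lists each peak has a fold enrichment, a -log10 p, a -log10 q and a score, all from the authors' peak calling. The score, which is -log10 p times 10 without its decimals, was not used. The lowest -log10 p was 3.00 in both lists, so weaker sites are not listed, and peaks were called per library. Reads at each summit were recovered as the whole number whose Poisson tail matched the -log10 p within 0.001, which was found for all 1816 VCP and 5719 Flag peaks.

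Genes came from a RefSeq table of GRCh38.p14, of whose 59792 rows 58961 lay on chromosomes 1 to 22, X and Y. The rule left out 25 USP17L copies and 1 read-through symbol, and kept UBE2V1P16, which the table calls protein-coding. Strand and promoter windows came from a RefSeq promoter table, which held 137 members. Named genes were all members with a VCP summit and all with a Flag peak at a q of at most 0.05. A few items that this rule picks are not reported here. Other genes given with values were picked after their values were seen. Related genes were counted from lists written by symbol. The members, lists and alternatives were chosen with earlier results of these data known. Python 3.11.15, numpy 2.4.6, scipy 1.17.1 and pandas 2.3.3 were used. The recovery of reads was tested on simulated data. The calls at gene ends were not put to such a test, since the summits planted for it lay within the window by construction. The alternatives were other windows, stricter q, the nearest gene only, starts only, whole peaks and whole genes.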

Additional observations from a re-analysis of the deposited data

How the results depend on the processing

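Of 84 recomputed counts 54 stayed within 1.5 times the reported one, and 30 did not. At a q of at most 0.05, which leaves fewer peaks, 1 member had a VCP summit (RNF139), 14 had a Flag summit and 1 had both (RNF139). By family these were 0 E2, 1 RING ligase and 0 USP genes in the VCP list, and 3, 3 and 8 in the Flag list, beside 0.272% and 5.53% of all protein-coding genes. At -log10 q of at least 5 there were 0 VCP, 2 Flag (RNF130 and USP15) and 0 shared, with 0, 0 and 0 by family in the VCP list and 0, 1 and 1 in the Flag list. With starts only, in the 137 members with a strand, the VCP list held 3 members, 0 E2, 3 RING ligase and 0 USP genes. The same VCP counts by family, 0, 3 and 0, came from CpG-rich windows only, an alternative chosen after seeing the data. In those windows 3 of 114 members had a VCP summit (2.63%), below the 3.26% of all protein-coding genes. A 500 bp window left 1 gene in both lists (RNF20) and 5 RING ligase genes in the Flag list. With summits anywhere in the gene, 11 members were in the VCP list, 6 in both, and 3 USP genes in the VCP list. The VCP share was then 5.88% for USP and 2.78% for E2 genes, beside 4.63% of all protein-coding genes. From so few genes these shares, like those of the main rule, give no order between the USP and E2 families. The Flag share of USP genes exceeded that of E2 genes, and that of E2 genes that of RING ligase genes, in 9 of 10 alternatives, the exception being -log10 q of at least 5. The alternatives reuse the same peaks and are not independent checks. Keeping the read-through symbol, or counting any part of a peak, left the Flag counts of all families unchanged. Reads over background in place of fold enrichment raised all 6 family medians, a rise fixed in advance because the added read is left out. The Flag medians became 4.41 for E2, 5.14 for RING ligase and 5.10 for USP genes. RING ligase genes then stood slightly above USP genes, where fold enrichment had given 3.71 and 3.74. With few reads per summit, a member without a listed peak is not shown to lack VCP. No paired analysis was possible because each antibody had 1 library.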
